A study of Mus musculus with 28 samples.

Results

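The regions described here carried 5-hydroxymethylcytosine (5hmC) in every library of that mark and lay on DNA that carried 5-methylcytosine (5mC) in every library of the other mark. Peaks of the 6 5hmC lists were merged wherever they overlapped by at least 1 bp on chromosomes 1 to 19, which gave 205075 5hmC regions, and peaks of the 5 5mC lists gave 215714 5mC regions. A 5hmC region was a member if it was under 4000 bp wide, had a peak in all 6 lists and overlapped a 5mC region with a peak in all 5 lists. This left 11529 members, 5.62% of all 5hmC regions and 19.1% of the 60259 constant 5hmC regions under 4000 bp, where constant means a peak in every list of the mark. Members were thus chosen by measured values, the presence of peaks in all 11 lists and the width of the merged region, and none of these is a result.

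The cells were bone marrow cells labelled LK, from C57BL/6 mice aged 6 to 10 weeks. The double knockout (DKO) lacked Tet1 and Tet2, the Tet2 knockout (Tet2KO) lacked Tet2, and wild-type (WT) mice lacked neither. There were 2 5hmC libraries for each genotype, and for 5mC 2 of DKO, 1 of Tet2KO and 2 of WT. Whether replicate libraries stand for different animals or pools, how the alleles were made and in which cells the genes were lost is not said in the labels. All p-values and spreads below therefore measure only the spread between libraries, which may be technical.

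TET enzymes are dioxygenases that oxidise the methyl group of 5mC to 5hmC and can carry the oxidation further, after which the base can be replaced by an unmodified cytosine. Mammals have another member, Tet3, which no genotype label names as lost. Because 5mC is the substrate, a stretch of DNA with both marks holds cytosines at both steps, either on different molecules and cells or at neighbouring positions. In human blood, loss of TET2 is known from myeloid and lymphoid malignancies. Neither assay reads single bases: hMe-Seal attaches a chemical tag to 5hmC and MeDIP-seq uses an antibody to 5mC, and both report where fragments were enriched.

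Members were wider than other constant 5hmC regions. Their widths ran from 276 to 3998 bp with a median of 1454 bp, against a median of 1058 bp for the 34977 constant 5hmC regions under 4000 bp that met no 5mC peak in any list and 1302 bp for the 13753 on 5mC of some lists only. Membership and width are linked by construction, since a wider region spans more bases. The share of constant 5hmC regions that were members was 12.5% from 500 to under 1000 bp, 17.2% up to 1500 bp, 24.2% up to 2000 bp, 31.7% up to 3000 bp and 41.6% up to 4000 bp. Under 500 bp there were 8 members, 6.20% of that class.

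**Figure D1:**
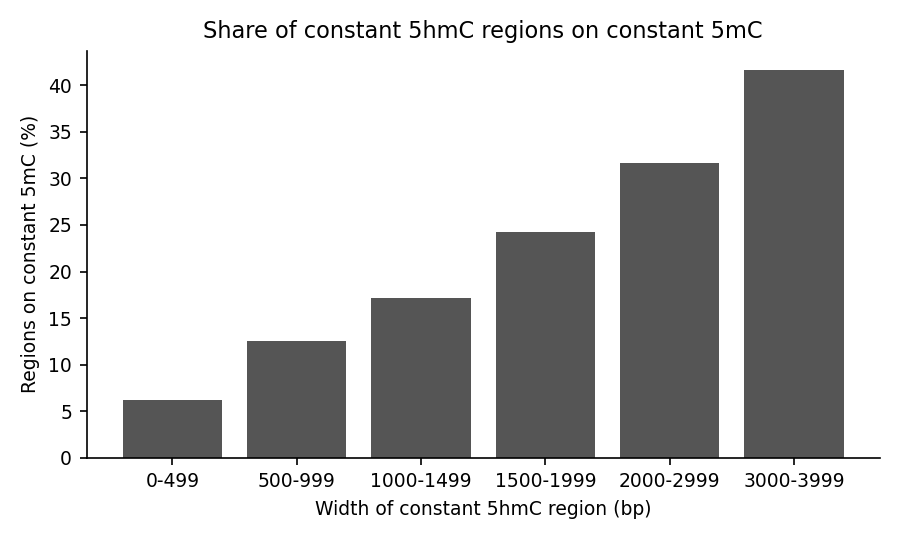
Share of constant 5hmC regions that lay on constant 5mC (y axis, %) by width of the 5hmC region (x axis, bp). Each bar is 1 width class over all 6 5hmC and 5 5mC libraries, and the share was higher in each wider class, up to 41.6% from 3000 to under 4000 bp.

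Just inside the width limit lay chr17:24640630-24644627 and chr11:82668645-82672642 (3998 bp each, build mm9) and chr13:94866340-94870336 (3997 bp), and just outside it chr10:80879857-80883856 (4000 bp), chr18:60866931-60870932 (4002 bp) and chr4:141207005-141211007 (4003 bp). In all, 726 regions of 4000 bp or more met the other conditions. A further 2857 regions missed membership by 1 5hmC list. The list without a peak was Tet2KO replicate 1 in 866 of them and Tet2KO replicate 2 in 821, DKO replicate 1 in 375 and DKO replicate 2 in 378, and WT replicate 1 in 193 and WT replicate 2 in 224. The WT lists were thus the missing ones in 6.76% and 7.84% of these regions. Among the 15103 regions under 4000 bp without any 5mC peak that missed 1 5hmC list, they were missing in 20.6% and 19.2%. The rule used the presence of peaks, so these shares describe its limit and are not a result.

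The members lay on all 19 autosomes and took 13.7% (chromosome 13) to 23.8% (chromosome 15) of the constant 5hmC regions of a chromosome. Chromosome 11 held the highest number, 1017, and chromosome 18 the lowest, 291. They were not evenly spaced. A 1 Mb bin with at least 1 member held a median of 5, while the densest bins were chr10:80000001-81000000 with 69 members among 169 constant regions (40.8%), chr10:79000001-80000000 with 61 among 139 (43.9%) and chr4:140000001-141000000 with 52 among 115 (45.2%). The nearest other member was at a median distance of 11173 bp, and 3833 members (33.2%) had one within 5 kb. These distances were not taken for all constant 5hmC regions, so they do not set members apart.

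Where the marks overlapped, the 5mC region mostly lay inside a longer 5hmC region. Peaks differed in this way in the whole lists, with median widths of 599 to 729 bp for 5hmC and 275 to 331 bp for 5mC. The constant 5mC regions under members numbered 12650, or 18.1% of all constant 5mC regions. Their median width was 505 bp, against 456 bp for the other constant 5mC regions. Of the 12734 overlapping pairs, the 5mC region lay wholly inside the 5hmC region in 9882 (77.6%), crossed 1 edge in 2797 (22.0%) and spanned the whole 5hmC region in 55. The midpoints of the marks were 285.5 bp apart in the median pair, and in 63.2% of pairs the 5mC midpoint fell in the middle 50% of the 5hmC region. A single constant 5mC region lay under 10425 members (90.4%), a pair under 1009, 3 under 89 and 4 under 6. Constant 5mC took up a median of 38.2% of a member's length (quartiles 24.8% and 55.6%).

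The cover of 5hmC peaks was highest over the 5mC itself, which the rule fixes in part, since each of these 5mC regions had to overlap a 5hmC region. At the midpoint of the 5mC regions a 5hmC peak was present in 83.2% and 80.2% of cases in the DKO libraries, 79.4% and 77.4% in Tet2KO and 88.8% and 86.9% in WT. At 500 bp to the right it was present in 50.0% and 45.2% in DKO, 43.5% and 42.3% in Tet2KO and 53.1% and 50.4% in WT. In the 5mC lists themselves the cover at the midpoint was 95.9% to 97.6% in all 5 libraries. The rule fixes this in part as well, since each region had to hold a peak of every 5mC list. At 200 bp to the left it was 46.8% and 56.8% in DKO, 49.8% in Tet2KO and 53.9% and 46.3% in WT.

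**Figure D2:**
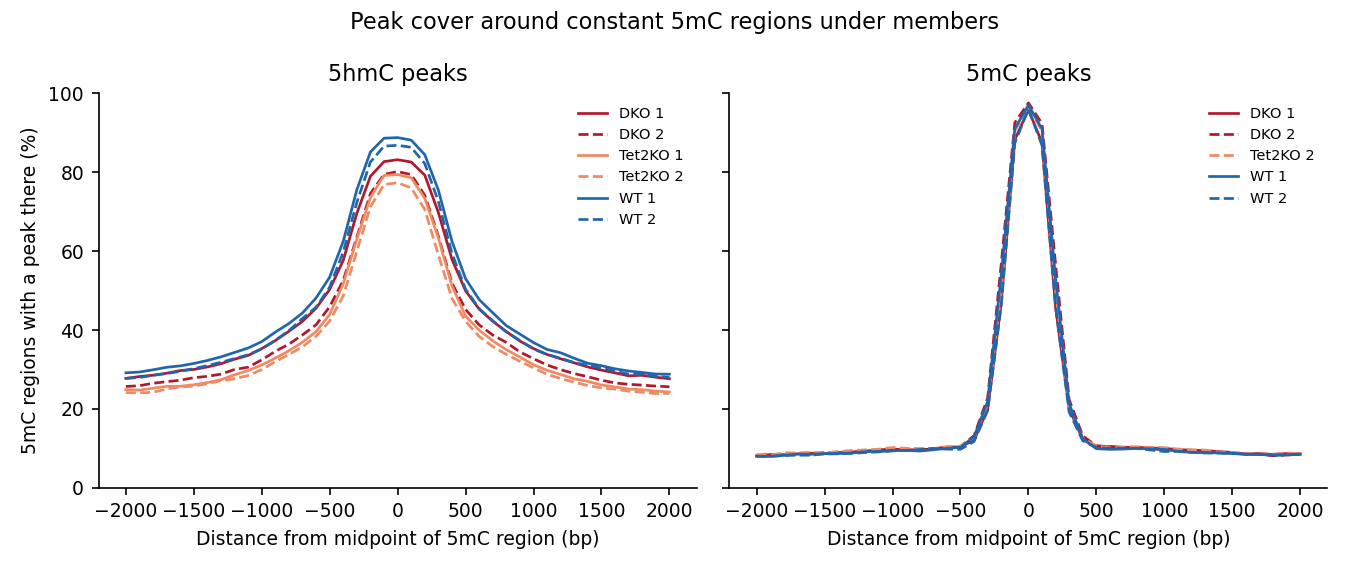
Percent of the 12650 constant 5mC regions under members with a 5hmC peak (left) or a 5mC peak (right) at each distance from the midpoint of the 5mC region (x axis, bp). Each line is 1 library. For 5hmC both WT lines lie above all knockout lines at the midpoint (88.8% and 86.9%, against 77.4% to 83.2%). The 5mC lines lie at 95.9% to 97.6% there, which the rule fixes in part, and at 46.3% to 56.8% at -200 bp.

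Counted base by base over all members, the bases over constant 5mC were covered by a 5hmC peak more often than the other bases of the same members, a set that holds the outer edges of the merged regions. In DKO the cover was 86.4% and 82.2% over 5mC and 76.5% and 69.5% elsewhere. Tet2KO had 81.1% and 78.6% over 5mC and 67.3% and 64.4% elsewhere, and WT had 92.9% and 90.8% over 5mC and 79.1% and 75.1% elsewhere. All 6 libraries showed the same order. Both WT libraries lay above the 4 knockout libraries over 5mC, while on the other bases DKO replicate 1 lay above WT replicate 2. A core covered in all 6 libraries at once took a median of 54.4% of a member, and 246 members (2.13%) had no such core.

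The median cover of members by 5hmC peaks was lower in all 4 knockout libraries than in both WT libraries. The median length covered by 5hmC peaks was 1108 and 1017 bp per member in the DKO libraries, 984 and 950 bp in Tet2KO libraries and 1193 and 1136 bp in WT, or 1062.5 ± 64.3 bp, 967 ± 24.04 bp and 1164.5 ± 40.3 bp (SD, n = 2 each). In constant regions without any 5mC peak the same median was 825 and 759 bp in DKO, 758 and 724 bp in Tet2KO and 819 and 786 bp in WT, and here DKO replicate 1 was above both WT libraries. Over all constant 5hmC regions under 4000 bp it was 903 and 833 bp in DKO, 817 and 781 bp in Tet2KO and 916 and 879 bp in WT. The ratio of members to regions without 5mC was 1.34 in each DKO library, 1.298 and 1.312 in Tet2KO and 1.46 and 1.45 in WT. Width enters this ratio, since members had a median width of 1454 bp against 1058 bp. The median percent of a region covered was lower in members than in regions without 5mC in each knockout library. Members minus regions without 5mC gave -0.99 and -1.11 points in DKO, -2.32 and -2.55 in Tet2KO and 3.89 and 3.64 in WT. The directions were the same for regions on 5mC of some lists. These had 85.07% and 78.2% in DKO, 77.97% and 74.03% in Tet2KO and 86.8% and 83.4% in WT. Regions without 5mC had 85.2% and 78.8% in DKO, 78.9% and 75.7% in Tet2KO and 84.6% and 81.4% in WT. These medians are given with no test, since members were chosen as a group, and 2 libraries against 2 cannot give a two-sided exact permutation p below 0.333.

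The rank of members within a list set them further apart from regions without 5mC in WT than in the knockouts. Each peak carries the authors' score, and the percentile of a member's highest peak within its own list stood at a median of 79.2 and 80.2 in DKO, 78.6 and 78.2 in Tet2KO and 83.5 and 83.8 in WT. For regions without any 5mC peak the order was opposite, with 69.2 and 71.8 in DKO, 69.8 and 70.7 in Tet2KO and 65.0 and 66.8 in WT. Members thus stood 9.96 and 8.43 percentile points above the regions without 5mC in the DKO lists, 8.79 and 7.46 points in Tet2KO and 18.6 and 17.1 points in WT. Regions on 5mC peaks of some but not all lists were between them in every library. Members were also wider, and from 500 bp upward the gaps within a width class were smaller in every library. From 500 to under 1000 bp, members had 59.9 and 64.6 in DKO, 62.3 and 61.3 in Tet2KO and 67.5 and 68.5 in WT. Regions without 5mC there had 58.8 and 63.2 in DKO, 60.8 and 61.9 in Tet2KO and 53.8 and 56.5 in WT. Percentiles of lists with different lengths do not show a change of level, and the gap compares regions within 1 list. The lists had 130077 and 143960 peaks in DKO, 137013 and 140491 in Tet2KO and 128471 and 135265 in WT, so DKO replicate 1 was of a length between the WT lists.

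**Figure D3:**
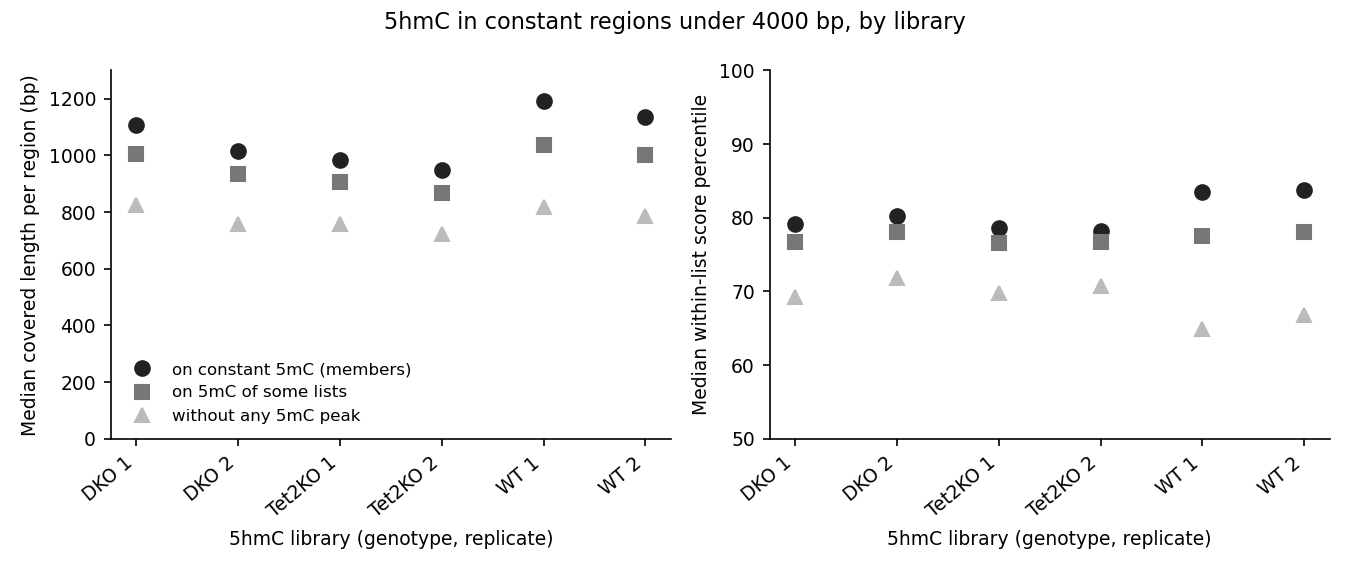
Median covered length (left, bp) and median within-list score percentile (right) of constant 5hmC regions under 4000 bp in each 5hmC library (x axis), for members, regions on 5mC of some lists and regions without any 5mC peak. For members the WT libraries lie highest in both panels (1193 and 1136 bp, 83.5 and 83.8), while regions without 5mC have their lowest percentiles in WT (65.0 and 66.8).

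The WT and knockout libraries stood further apart in rank where more of a member lay over 5mC. Members were ordered by that share and divided into 5 groups of near-equal size. In the group with the lowest share, at most 22.2% of the length, the median percentile was 88.2 and 88.3 in DKO, 87.0 in each Tet2KO library and 88.8 and 89.0 in WT. In the group with the highest share, at least 59.9%, it was 67.8 and 70.7 in DKO, 67.5 and 68.1 in Tet2KO and 78.7 and 79.6 in WT. The fitted log2 difference in covered length, described further on, had a median of 0.0057 in the lowest group and -0.057 in the highest for DKO minus WT, and of -0.00025 and -0.019 for Tet2KO minus WT. The groups differ in width as well, with a median of 2354.5 bp in the lowest and 971 bp in the highest.

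Members were therefore also split at 50% over 5mC within width classes. From 1000 to under 1500 bp, the 965 members with at least 50% had median percentiles of 75.5 and 77.8 in DKO, 76.3 and 75.1 in Tet2KO and 83.9 and 85.0 in WT. The 2215 members of that class with less had 74.3 and 76.4 in DKO, 74.6 and 74.4 in Tet2KO and 78.1 and 78.8 in WT. From 2000 to under 3000 bp, the 287 with at least 50% had 89.7 and 90.03 in DKO, 88.5 and 89.5 in Tet2KO and 95.3 and 95.4 in WT, and the 2048 with less had 90.6 and 90.4 in DKO, 89.2 and 89.4 in Tet2KO and 92.1 in each WT library. Both WT libraries were above all knockout libraries in these and in the other combinations of class and share from 500 bp upward, with a single exception. This was the 911 members from 500 to under 1000 bp with less than 50% over 5mC, at 64.4 and 68.9 in DKO, 65.7 and 64.7 in Tet2KO and 65.3 and 67.0 in WT, where the groups overlapped.

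In fitted covered length, DKO minus WT had a median log2 difference of -0.035 in members from 500 to under 1000 bp with at least 50% over 5mC and of -0.0011 in those with less. The same medians were -0.101 and -0.0061 from 2000 to under 3000 bp. For Tet2KO minus WT they were 0.018 and 0.030 in the narrower class and -0.128 and -0.030 in the wider one. The value was lower for the members with more 5mC in each of these pairs.

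**Figure D4:**
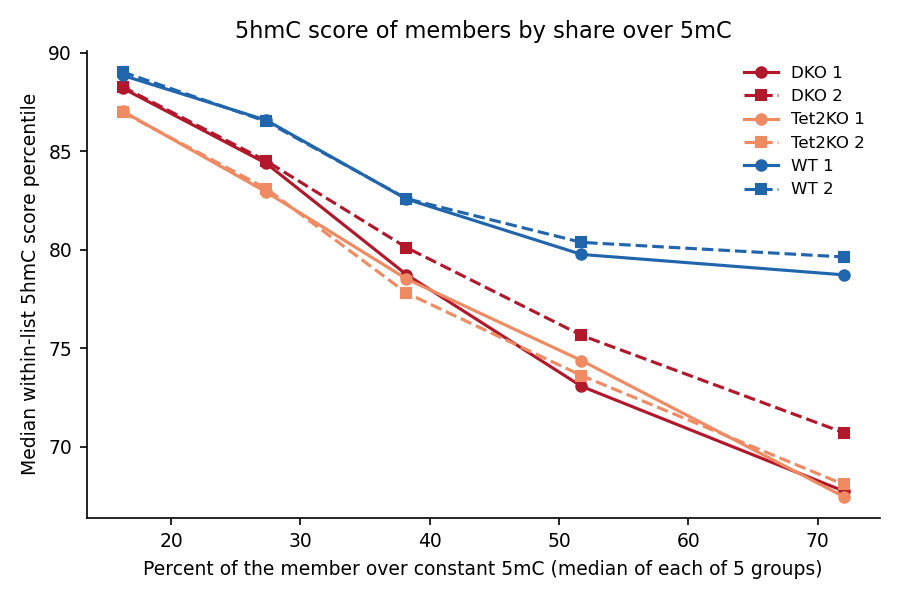
Median within-list 5hmC score percentile of members (y axis) by the percent of the member over constant 5mC (x axis, median of each of 5 groups of the 11529 members). Each line is 1 library, and the WT lines end at 78.7 and 79.6 in the group with the highest share, above the knockout lines at 67.5 to 70.7.

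Single members were then compared between genotypes by the length their 5hmC peaks covered. The log2 of covered bp, centred on the median of each library, was fitted with limma over all 61524 constant 5hmC regions, and p-values were adjusted over all of them by Benjamini-Hochberg. Regions that lacked a peak in a list were not in this fit, so the loss of a whole peak could not be called. No region passed an adjusted p of 0.05 in any of the contrasts, members included (0% called, smallest adjusted p = 0.360 for DKO against WT, 0.303 for Tet2KO against WT and 0.5004 for DKO against Tet2KO, limma). Counts at an unadjusted p under 0.05 are given below as a description, not as calls.

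In DKO against WT, 518 members (4.49%) had an unadjusted p under 0.05 with less 5hmC in DKO, beside 3.02% of all constant regions, and 231 (2.00%) had more, beside 3.27%. The median log2 difference, DKO minus WT, was -0.028 over members, 0.036 over regions without 5mC and 0.016 over all regions. Over regions on 5mC of some lists it was 0.0021. Without centring, the medians over members, regions without 5mC and all regions were -0.078, -0.014 and -0.034. The centred member median was -0.0068 without DKO replicate 1. Both DKO libraries lay below both WT libraries in 2602 members (22.6%), beside 17.3% of all constant regions, and above them in 1875 (16.3%), beside 21.3%. The member median was below that of the regions without 5mC on each of the 19 chromosomes, with a difference of -0.095 to -0.039, though chromosomes of 1 library are not replicates.

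In Tet2KO against WT, 672 members (5.83%) had less 5hmC in Tet2KO at an unadjusted p under 0.05, beside 3.57% of all constant regions, and 250 (2.17%) had more, beside 4.17%. Both Tet2KO libraries lay below both WT libraries in 2263 members (19.6%), beside 13.5% of all constant regions, and above them in 2385 (20.7%), beside 26.2%. The scaling bears on these values, since the median of all regions was 0.051 with centring and -0.119 without. Without centring, 1328 members had less and 87 had more 5hmC in Tet2KO at an unadjusted p under 0.05. Beside them stood 4715 and 852 of all 61524 constant regions, so the shift was not limited to members. For DKO against WT the member counts were 620 and 167, beside 2259 and 1443 of all constant regions. The median log2 difference, Tet2KO minus WT, was -0.012 over members and 0.078 over regions without 5mC when centred, and -0.181 and -0.091 when not. Regions on 5mC of some lists had a centred median of 0.031. The gap of -0.090 between members and regions without 5mC is the same with and without centring, since centring shifts all regions of a library alike. The centred member median changed direction when a library was left out, at 0.010 without Tet2KO replicate 1 and 0.00033 without Tet2KO replicate 2. This comparison and the one before it share the WT libraries. All 4 knockout libraries lay below both WT libraries in 1088 members (9.44%), beside 6.09% of all constant regions, and above both in 900 (7.81%), beside 11.2%.

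In DKO against Tet2KO the members were close to the regions without 5mC. The gap between members and regions without 5mC was 0.016 on the log2 scale, DKO minus Tet2KO. A total of 411 members (3.56%) had more 5hmC in DKO at an unadjusted p under 0.05, beside 2.8% of all constant regions, and 284 (2.46%) had less, beside 2.82%. Both DKO libraries lay above both Tet2KO libraries in 1566 members (13.6%), beside 12.7%, and below them in 2471 (21.4%), beside 22.6%. The direction of the member median depended on the scaling, at -0.029 with centring and 0.091 without. The median of all constant regions moved alike, from -0.038 to 0.082. Without centring, 706 members had more and 126 less 5hmC in DKO at an unadjusted p under 0.05. Of all 61524 constant regions, 3143 had more and 737 less.

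**Figure D5:**
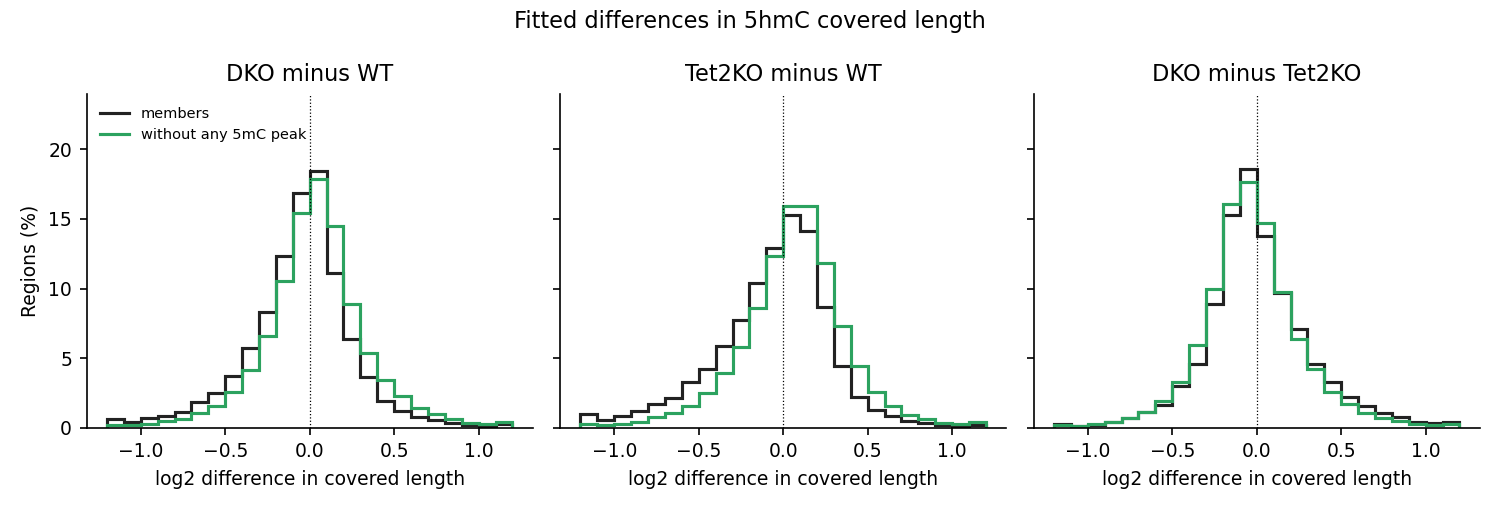
Share of regions (y axis, %) by the fitted log2 difference in covered 5hmC length (x axis, steps of 0.1, outer steps holding all values beyond 1.1) for members and for constant regions without any 5mC peak. The member curve lies to the left in DKO minus WT (medians -0.028 and 0.036) and in Tet2KO minus WT (-0.012 and 0.078), and nearly on the other curve in DKO minus Tet2KO.

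The members with the smallest unadjusted p in each direction show what a difference of this kind looks like in the lists. The covered 5hmC length at chr4:128450817-128451997 was 546 and 465 bp in the DKO libraries, 381 and 370 bp in Tet2KO and 1181 and 1154 bp in WT. All 4 knockout libraries were far below both WT libraries there, with a log2 difference of -1.16 ± 0.14 (SE) in DKO against WT (limma, adjusted p = 0.360) and of -1.47 ± 0.14 in Tet2KO against WT (adjusted p = 0.303). Its constant 5mC region of 384 bp was covered over 294 and 240 bp in DKO, 240 bp in Tet2KO and 384 and 247 bp in WT. It was among the 3 members of smallest p with lower 5hmC in both contrasts.

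At chr17:49589813-49591946 the DKO libraries covered 699 and 586 bp, the Tet2KO libraries 756 and 596 bp and the WT libraries 2027 and 1713 bp. Member chr5:104024686-104026256 had 544 and 441 bp in DKO, 620 and 477 bp in Tet2KO and 1443 and 1300 bp in WT. In both, the 4 knockout libraries were well below WT, with log2 differences of -1.49 and -1.43 for DKO against WT (limma, adjusted p = 0.360 each). Lower in Tet2KO than in WT were also chr17:29419602-29421136, with 521 and 489 bp in Tet2KO against 1535 and 1445 bp in WT, and chr10:7956947-7959316, with 599 and 555 bp in Tet2KO against 1713 and 2014 bp in WT (limma, adjusted p = 0.303 each). The DKO libraries were between them at the first, with 1081 and 963 bp, and near WT at the second, with 1637 and 1698 bp. The second had 47 bp over constant 5mC, 1.98% of its length.

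Other members had a longer 5hmC cover in a knockout, none with an adjusted p under 0.05. The largest log2 difference of DKO against WT in that direction among the 3 of smallest p was 1.80 ± 0.21 (SE) at chr11:117837701-117839911, with 2145 and 1666 bp in DKO against 612 and 514 bp in WT (limma, adjusted p = 0.360). Tet2KO had 529 and 681 bp there, like WT. At chr5:112697327-112698893 DKO covered 1489 and 1409 bp, Tet2KO 591 and 631 bp and WT 697 and 657 bp. Both knockouts were above WT at chr11:105308172-105309648, with 1438 and 1324 bp in DKO, 1371 and 1196 bp in Tet2KO and 718 and 597 bp in WT, the only member among the 3 of smallest p with higher 5hmC in both contrasts. At chr6:17873357-17874480 the length was 634 and 521 bp in DKO, 1021 and 1022 bp in Tet2KO and 557 and 409 bp in WT, and at chr4:137844064-137845557 it was 854 and 767 bp in DKO, 1354 and 1295 bp in Tet2KO and 783 and 672 bp in WT. Tet2KO lay above both other genotypes at these members.

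Between the knockouts, chr8:119797479-119799434 had 825 and 649 bp in DKO against 1853 and 1826 bp in Tet2KO, while WT had 1839 and 1805 bp. The same order was seen at chr2:155922852-155924315 (490 and 530 bp in DKO, 1186 and 1176 bp in Tet2KO) and chr17:47949069-47952171 (1129 and 732 bp in DKO, 2547 and 2842 bp in Tet2KO). The opposite order held at chr10:39334241-39336878, where DKO covered 2638 and 1920 bp and Tet2KO 661 and 702 bp, and WT had 2287 and 1958 bp. It held as well at chr11:97949341-97950531 (1173 and 1123 bp in DKO, 453 and 380 bp in Tet2KO) and chr3:84499169-84501031 (1756 bp in each DKO library, 644 and 661 bp in Tet2KO). At these last 3 members WT was near DKO, with mean covered lengths of 2122.5, 989.5 and 1667.5 bp. None of the 6 passed (limma, adjusted p = 0.5004 each).

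The 5mC under the members overlapped between DKO and WT in covered length. Its median covered length was 372 and 416 bp per 5mC region in DKO, 388 bp in Tet2KO and 401 and 369 bp in WT. Ranked within each list, these 5mC regions stood above the other constant 5mC regions by 5.80 and 6.92 percentile points in DKO, 6.66 in Tet2KO and 3.21 and 4.17 in WT. The knockout lists thus had the wider gap for 5mC, in the opposite order to 5hmC. The comparison sets differ, since the 5hmC gap was to regions without any 5mC peak. The other constant 5mC regions were not limited to those without 5hmC. The 5mC gap was not examined by width. The lists held 147934 and 120243 peaks in DKO, 138122 in Tet2KO and 126995 and 140979 in WT.

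No constant 5mC region passed in DKO against WT (limma over 70032 regions, 0% called, smallest adjusted p = 0.454). Without DKO replicate 1 there was 1 call and without WT replicate 1 there were 2, none of them under members. At an unadjusted p under 0.05, 389 of the 12650 under members (3.08%) had more 5mC in DKO, beside 2.25% of all constant 5mC regions, and 236 (1.87%) had less, beside 2.16%. The median log2 difference, DKO minus WT, was 0.018 under members and -0.0012 elsewhere, and under members it was -0.0054 without WT replicate 1. Both DKO libraries lay above both WT libraries at 2249 of them (17.8%), beside 16.2% of all, and below at 1806 (14.3%), beside 15.9%.

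The 5mC region with the smallest p, inside the member chr5:147587341-147590599, was covered over 576 and 630 bp in DKO, 548 bp in Tet2KO and 202 and 165 bp in WT, a log2 difference of 1.72 ± 0.25 (SE, limma, adjusted p = 0.454). All 3 knockout libraries were far above WT, and the 5hmC of that member was similar, with means of 2818.5 bp in DKO, 2774.5 bp in Tet2KO and 2708 bp in WT. In chr18:13189758-13191200 the 5mC covered 550 and 653 bp in DKO, 295 bp in Tet2KO and 184 and 158 bp in WT, and in chr17:84496020-84498001 it covered 717 and 754 bp in DKO, 660 bp in Tet2KO and 297 and 245 bp in WT. Lower 5mC in DKO was seen in chr11:115094750-115096385 (193 and 225 bp in DKO, 589 and 579 bp in WT), chr3:89745010-89746052 (357 and 381 bp in DKO, 789 and 772 bp in WT) and chr4:40751807-40753204 (246 and 253 bp in DKO, 701 and 485 bp in WT). The single Tet2KO library was near DKO at the first of these, with 205 bp, and near WT at the others, with 762 and 601 bp. The adjusted p was 0.454 for 5 of these 6 regions and 0.488 for that in chr4:40751807-40753204 (limma).

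The differences of the marks had a correlation near 0 over members. The 5hmC and 5mC differences of DKO against WT had a Spearman rho of 0.0057 and a Pearson r of 0.016 over the 11529 members, which come from the same 4 5hmC and 4 5mC libraries and are not independent. Less 5hmC with more 5mC in DKO was found at 3366 members (29.2%), less of both at 2982 (25.9%), more of both at 2764 (23.97%) and more 5hmC with less 5mC at 2417 (21.0%). Among the 518 members with less 5hmC at an unadjusted p under 0.05, the 5mC was higher in DKO at 48.1%, against 53.2% of all members, and the median log2 difference of 5mC was -0.0099. Among the 231 with more 5hmC it was higher at 57.6%, and the median was 0.059.

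The 5 members of highest 5hmC rank did not share an order of genotypes in covered length. Orders here and in the other groups of 5 members below are of covered bp without centring, whereas the counts above used centred values. Over all constant regions the median log2 difference, Tet2KO minus WT, was -0.119 without centring and 0.051 with it. For DKO minus WT it was -0.034 and 0.016. Small differences named below can therefore change order with centring. Member chr10:79327123-79330547 had the highest 5hmC score percentile and 3 constant 5mC regions over 66.9% of its 3425 bp. Its single 5hmC peak covered 3273 and 3088 bp in DKO, 3174 and 3140 bp in Tet2KO and 3218 and 3307 bp in WT, and every list gave it a score of 3100. Both Tet2KO libraries lay below both WT libraries there, while DKO and WT overlapped. At chr17:35031876-35034794, the next, the 5hmC covered 2874 and 2672 bp in DKO, 2894 and 2677 bp in Tet2KO and 2605 and 2330 bp in WT, and at chr5:124465572-124469339 it covered 3696 and 3678 bp in DKO, 3599 and 3616 bp in Tet2KO and 3475 and 3504 bp in WT. All 4 knockout libraries were above both WT libraries at chr17:35031876-35034794 and chr5:124465572-124469339. At chr7:91030385-91031925, whose median 5mC percentile was 99.9, the 5hmC covered 1333 and 1441 bp in DKO, 1198 and 1411 bp in Tet2KO and 1532 and 1259 bp in WT, and at chr9:21040997-21042245 it covered 1201 and 1182 bp in DKO, 1130 and 956 bp in Tet2KO and 1249 and 1165 bp in WT. Both knockouts overlapped WT at chr7:91030385-91031925, whereas at chr9:21040997-21042245 DKO overlapped WT and both Tet2KO libraries lay below it.

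High 5mC did not go with high 5hmC in each case. Among the 5 members of highest 5mC percentile, chr5:125508626-125509877 lay wholly on 5mC and had a median 5hmC percentile of 53.0. Its 5hmC covered 701 and 962 bp in DKO, 718 and 1104 bp in Tet2KO and 1248 and 1180 bp in WT. At chr15:76009961-76012656, which lies within a 5mC region of 10305 bp, the 5hmC covered 1727 and 957 bp in DKO, 1660 and 779 bp in Tet2KO and 2371 and 2576 bp in WT. At both, the 4 knockout libraries were below WT. The others had median 5hmC percentiles of 99.7 (chr15:85861385-85863931), 98.2 (chr1:36323925-36326877) and 91.0 (chr2:32596624-32598369). At chr15:85861385-85863931 the 5hmC covered 2315 and 2305 bp in DKO, 1932 and 2137 bp in Tet2KO and 2384 and 2254 bp in WT, so DKO overlapped WT and Tet2KO was below it. At chr1:36323925-36326877 it covered 2218 and 2213 bp in DKO, 2478 and 2388 bp in Tet2KO and 2255 and 2228 bp in WT, so Tet2KO was above WT and DKO below it. At chr2:32596624-32598369 it covered 1136 and 1576 bp in DKO, 1585 and 1235 bp in Tet2KO and 1632 and 1554 bp in WT, so both knockouts overlapped WT. Over members, the WT percentiles of both marks had a Spearman rho of 0.117, as a description over regions of shared libraries.

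The 5 members with the most bases over constant 5mC had 2981 to 3495 bp of it. At chr18:74376383-74380199, with 3495 bp, the 5hmC covered 2881 and 2494 bp in DKO, 2289 and 2207 bp in Tet2KO and 3469 and 3077 bp in WT. At chr5:111847221-111851007 it covered 3278 and 3230 bp in DKO, 2333 and 2350 bp in Tet2KO and 3680 and 3506 bp in WT, and at chr4:141028456-141031830 it covered 2675 and 2996 bp in DKO, 2081 and 1872 bp in Tet2KO and 3374 and 3290 bp in WT. These 3 had the order Tet2KO below DKO below WT with no overlap of libraries. Tet2KO was below WT as well at chr15:78501513-78505273, where DKO overlapped both, with 1833 and 3108 bp in DKO, 2192 and 1485 bp in Tet2KO and 3292 and 2427 bp in WT. WT was the lowest at chr11:102297001-102300540, where DKO and Tet2KO overlapped, with 3372 and 3077 bp in DKO, 3308 and 3145 bp in Tet2KO and 2885 and 2725 bp in WT.

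Of the 5 widest members, chr11:82668645-82672642, chr13:94866340-94870336 and chr10:120810593-120814581 were covered over more than 3000 bp in every library. At chr17:24640630-24644627, 69.7% of which lay on 5mC, the 5hmC covered 3209 and 1222 bp in DKO, 1561 and 3262 bp in Tet2KO and 3893 and 3207 bp in WT, so that the replicates of both knockouts were far apart. Both WT libraries were above the 4 knockout libraries at chr4:129848064-129852057, with 2091 and 2332 bp in DKO, 1089 and 2337 bp in Tet2KO and 2955 and 3529 bp in WT.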

How the data were processed

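The series holds 28 mouse samples, of which 11 peak lists were used and 17 RNA-seq samples were not used here. The assays were hMe-Seal for 5hmC and MeDIP-seq for 5mC, per the labels. The submitters' processing notes name MACS 1.4.2, Bowtie 0.12.9 and CASAVA 1.4, also Cuffdiff 2.2.1 and TopHat2 2.0.8, and the build mm9, with no role. The deposited lists, 1 per library, give position and a score per peak, at least 50, whose scale no header states, and several of the highest peaks share 3100. For control library, duplicates and depth, nothing is stated in those sources, and depth changes peak number and width. Positions are mm9, counted from 1. No mm9 genome or annotation was used, so genes, sequences and the planned annotation of members are not analysed here.

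Regions were merged in Python 3.11.15 and fitted with limma 3.58.1 (R 4.3.3, trend), all libraries of a mark in 1 fit, on regions with a peak in every list. The fit was tested on simulated data. Groups and replicate numbers come from the titles. The Tet2KO 5mC library is number 2 by title and 1 by its file. Members and lists were chosen with earlier results of these data known. Named are the 5 widest members, the 5 with most bases over 5mC, the 5 highest by median score percentile in each mark, and the 3 of smallest p in each direction and contrast.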

Additional observations from a re-analysis of the deposited data

How the results depend on the processing

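At a minimum score of 100, members numbered 4110 (15.0% of constant 5hmC regions), and the median covered length was 1352.5 and 1237 bp in DKO, 1176 and 1137 bp in Tet2KO and 1445 and 1372 bp in WT. With no width limit the share was 19.9%, and the covered length was 1042 and 1000 bp in Tet2KO and 1253 and 1190 bp in WT. The cause was not tested. Leaving out 1 list at a time gave 11722 to 12433 members, an overlap of at least 50% gave 10900 and no width limit 12255. The 5hmC contrasts had 0 regions called under the score minimum, no centring, the arcsine scale, at least 2 lists, no trend, the block and each library left out. For 5mC in DKO against WT, 1 region was called without DKO replicate 1, 2 without WT replicate 1, and 0 without either of the others, none of them under members.

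The gap in median difference between members and regions without 5mC was -0.064 in DKO against WT and -0.090 in Tet2KO against WT. It stayed negative under those alternatives, from -0.059 to -0.064 and from -0.086 to -0.097 with 1 library left out. On the arcsine scale of the covered fraction it was -0.075 in Tet2KO against WT, and with all regions of at least 2 lists it was -0.084 in DKO and -0.112 in Tet2KO, on another scale than log2.

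Without Tet2KO replicate 1 or 2, the centred median log2 difference of members, Tet2KO minus WT, was 0.010 and 0.00033. Over all constant regions it was 0.071 and 0.060. For DKO minus Tet2KO the member median was -0.045 and -0.030, beside -0.057 and -0.042 over all constant regions. The median 5mC difference under members, DKO minus WT, was 0.0061 without DKO replicate 1, beside -0.0043 over all constant 5mC regions. At a minimum score of 100 the fit held 28434 5hmC regions, 4110 of them members. At an unadjusted p under 0.05, 211 members had less and 80 more 5hmC in DKO against WT, beside 915 and 916 of all. These counts were 274 and 96 in Tet2KO against WT, beside 1105 and 1129. In DKO against Tet2KO they were 91 and 140, beside 764 and 843. For 5mC they were 88 and 124 of 4426 under members, beside 746 and 802 of all 36467. With regions of at least 2 lists the fit held 152392 5hmC regions. Of the 11529 members, 328 had less and 169 more 5hmC in DKO against WT, beside 6576 and 8264 of all. These counts were 296 and 207 in Tet2KO against WT, beside 6053 and 7717. In DKO against Tet2KO they were 173 and 145, beside 4755 and 4809. For 5mC they were 96 and 161 of 12650 under members, beside 2152 and 2037 of all 150183. The same replicate numbers did not deviate together (correlations of 0.018, 0.016 and 0.0026 for 5hmC and -0.039 for 5mC), and a replicate block left the 5hmC contrasts at 0 calls and called 4 5mC regions in DKO against WT (adjusted p = 0.0448), 3 of them under members, with those in chr5:147587341-147590599 and chr18:13189758-13191200 among them. The annotation planned for members was not run. No depth was known for any list.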
